A study of Mus musculus with 6 samples.

Results

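NF-κB is a family of transcription factors that wait in the cytoplasm, bound to IκB inhibitors, until a signal such as TNF, IL-1 or a Toll-like receptor ligand has the inhibitors destroyed. The freed dimers enter the nucleus and bind κB sites, and the genes they induce include adaptors that carry the signal further, adhesion and cytokine molecules, factors that protect the cell from death, and inhibitors that end the response. In bone marrow and in myeloid leukemia the pathway is known for its part in inflammation and in cell survival. The 34 genes described here are known NF-κB induced genes, with the NF-κB subunits and their classical inhibitors left out. They were found by symbol among the 54532 genes of the deposited count table, and all 34 were present.

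RNA-seq was done on leukemia cells of C57BL/6 mice, in 3 libraries from the central bone marrow (CBM) and 3 from the endosteal bone marrow (EBM), the layer next to the bone surface. In both groups the leukemia had been started by c-Kit+ progenitors infected with a retrovirus that carries AML1-ETO9a (AE9a), a truncated product of the t(8;21) fusion gene, together with GFP. The cells came from the third generation of transplanted mice, and both groups were kept in IMDM with serum around the sort. CBM cells were flushed from femurs and tibias and EBM cells were then released from the same bones with warm collagenase I, so region and digestion coincide and cannot be told apart. The age of the leukemic mice is not given with the samples, all cells descend from 1 transplantable leukemia model, and nothing states that the libraries of a group come from separate mice, so p-values measure only the spread between these libraries. Total counts on genes were between 17078883 and 19462964 in CBM and between 16436526 and 18413131 in EBM. A floor of 3 counts was worth 0.149 to 0.193 CPM (counts scaled by the TMM-adjusted library size), which covers counting error only.

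The label of leukemia cells was checked against markers. Kit, the receptor of the transduced progenitors, had between 3046 and 4513 counts per library, and Myb had between 4851 and 6200. The rest of the 8 genes of the progenitor list were low or uneven. Cd34 was at 15.4, 1.16 and 4.86 CPM in CBM and at 16.4, 10.5 and 1.22 CPM in EBM. Mpo had 29 to 643 counts per library and Erg 36 to 205. Ptprc, which encodes the pan-leukocyte protein CD45, had only 2 to 68 counts, and Gfi1 and Meis1 did not pass the filter on low counts. Genes of red cell precursors were abundant, with summed levels of 2116 to 5239 CPM in CBM and 2454 to 3581 CPM in EBM. Fewer cells of a type and less RNA per cell cannot be told apart in such bulk samples.

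Most of the NF-κB targets that could be tested had a higher mean level in EBM than in CBM, among them the nuclear regulators Nfkbiz, Nfkbid and Irf1, the adhesion gene Icam1 and the survival gene Birc3. Of the 34 targets, 25 were among the 13352 genes that passed the filter on low counts, and 22 of these 25 had a log2 fold change above 0, as did 50.4% of all genes tested. By the quasi-likelihood test of edgeR, 12 targets were higher in EBM with an unadjusted p under 0.05, against a background of 4.01% of all genes tested, and 0 were lower, against a background of 3.90%. With Benjamini-Hochberg adjustment over all genes, edgeR called 0 targets and 0% of all genes at 0.05. DESeq2, which gave an adjusted p for 12280 genes, called 9 targets higher, against a background of 1.07%, and 0 lower, against 0.366%. Every EBM library lay above every CBM library for 10 targets, where 7.47% of all genes did so, and every EBM library lay below every CBM library for 0 targets, where 7.65% of all genes did so. The median log2 fold change of EBM over CBM was 0.58 over the 25 targets and 0.0017 over all genes tested, and the targets ranged from -0.28 to 2.74. These counts and the median describe targets that passed the filter, and carry no test of the list.

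**Figure D1:**
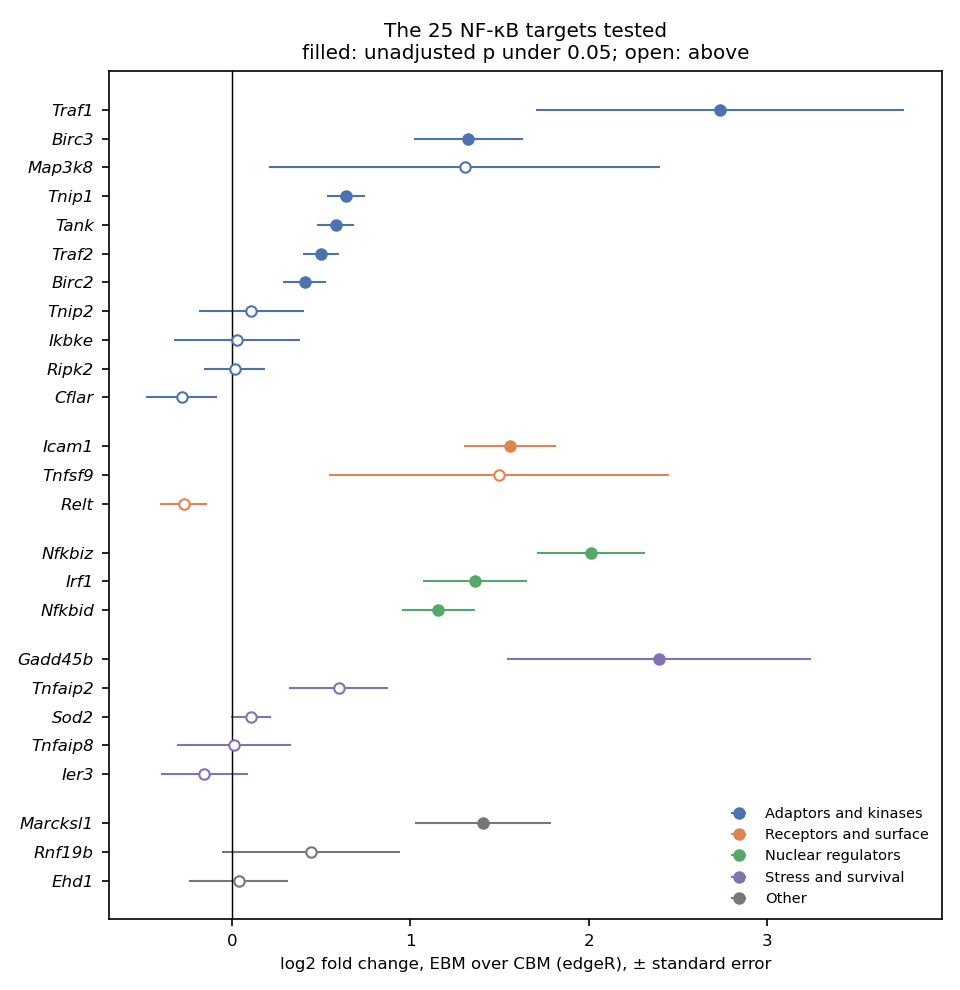
The log2 fold change of EBM over CBM (horizontal axis, edgeR, 3 libraries a group) is plotted for the 25 NF-κB targets tested, grouped by role, with bars for the standard error. Filled points are the 12 targets with an unadjusted p under 0.05, all to the right of 0, and the 3 targets left of 0 (Cflar, Relt and Ier3) are open.

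The promoters of the targets were searched for κB sites, as a description with no test, since the genes were listed for being known targets. In the 300 bases around RefSeq transcription starts (250 before and 50 after, build GRCm38.p6, 26 of the 34 targets with an entry), the consensus κB site was searched for by its letters on both strands, with overlapping matches kept. It occurred in 10 of the 26 targets (38.5%), against 9.55% of 27025 genes, and in 14 of their 36 promoters (38.9%), against 8.46% of 32851 promoters. Among genes tested it occurred in 7 of 19 targets (36.8%) and in 12.1% of 9064 genes. It was in 4 of the 11 targets with an entry that were higher in EBM at an unadjusted p under 0.05 (36.4%) and in 6 of the other 15 (40%), 3 of these 6 being genes that were not tested between regions (Tlr2, Csf1 and Pde4b). The AP-1 site TGANTCA, searched in the same way, was in 2 of the 26 targets (7.69%) and in 8.97% of genes. Among genes tested it was in 2 of 19 targets (10.5%) and in 5.88% of genes. A match is a description of the letters and not evidence of binding, and the lack of one says nothing about NF-κB.

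The stretches of the 4 targets that were higher in EBM and held the site are shown, because they give the matched letters near a start of Tnip1, Irf1, Tank and Nfkbid. Each is read 5′ to 3′ on the strand of the gene, with the κB match in capitals and up to 20 bases on each side. Coordinates are those of the whole printed stretch and not of the match alone. The Tnip1 stretch (chr11:54962967-54963018, minus strand, upstream of the gene) joins 3 overlapping matches between 58 and 47 bases before the start. The Irf1 match ends 4 bases before the start (stretch chr11:53769981-53770013, plus strand, upstream of the gene). Tank has a match that ends 1 base before a start (stretch chr2:61578527-61578556, plus strand, upstream of the gene) and another within an intron, before a later start (stretch chr2:61593005-61593054). Nfkbid has 2 that do not overlap, in the stretches chr7:30422160-30422209 and chr7:30422205-30422254 (plus strand, within an intron).
Tnip1: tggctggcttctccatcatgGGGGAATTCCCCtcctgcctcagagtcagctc
Irf1: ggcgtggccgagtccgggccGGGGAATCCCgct
Tank, first match: aagtcaggggatttctcagtGGAAGTCCCC
Tank, second match: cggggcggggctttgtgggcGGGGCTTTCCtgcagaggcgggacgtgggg
Nfkbid, first match: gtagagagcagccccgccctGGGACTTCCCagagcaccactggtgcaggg
Nfkbid, second match: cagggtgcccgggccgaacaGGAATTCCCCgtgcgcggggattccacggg
For contrast, Ier3 (chr17:35821601-35821650, plus strand, upstream of the gene) and Sod2 (chr17:13007736-13007785, plus strand, intron) carry a match of the same kind and had a log2 fold change of -0.16 (SE 0.244) and 0.11 (SE 0.113).
Ier3: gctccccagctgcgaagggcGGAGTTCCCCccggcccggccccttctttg
Sod2: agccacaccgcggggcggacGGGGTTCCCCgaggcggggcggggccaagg

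All 3 nuclear regulators among the targets were higher in EBM. In each of them every EBM library lay above every CBM library, as for 7.47% of all genes tested. Nfkbiz (chr16:55811375-55838899) encodes IκBζ, an atypical nuclear IκB protein that is itself induced and that switches on secondary response genes. Its level was 70.5, 37.6 and 35.0 CPM in CBM replicates 1 to 3 and 195, 229 and 154 CPM in EBM replicates 1 to 3. The lowest EBM library thus stood far above the highest CBM library, and the log2 fold change was 2.02 (SE 0.302, 4.04-fold), with an unadjusted p of 0.000321, an edgeR adjusted p of 0.157 and a DESeq2 adjusted p of 1.25e-08. Of the 25 targets tested it had the lowest p. Nfkbid (chr7:30421732-30428746), which encodes the related nuclear protein IκBNS, was at 71.0, 53.8 and 50.4 CPM in CBM and at 126, 162 and 103 CPM in EBM. The groups did not overlap, and the log2 fold change was 1.16 (SE 0.204, edgeR adjusted p 0.184, DESeq2 adjusted p 6.96e-05). Per kilobase of gene length, it had the highest level of these 3 genes, at 24.9 CPM per kilobase in CBM and 55.5 in EBM. Irf1 (chr11:53770014-53778374), a transcription factor of interferon and cytokine responses, was at 16.6, 9.16 and 7.69 CPM in CBM and at 31.5, 26.8 and 27.6 CPM in EBM. Its EBM libraries were close to one another while CBM replicate 1 stood above the other CBM libraries, and the log2 fold change was 1.36 (SE 0.291, edgeR adjusted p 0.275, DESeq2 adjusted p 0.00107).

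**Figure D2:**
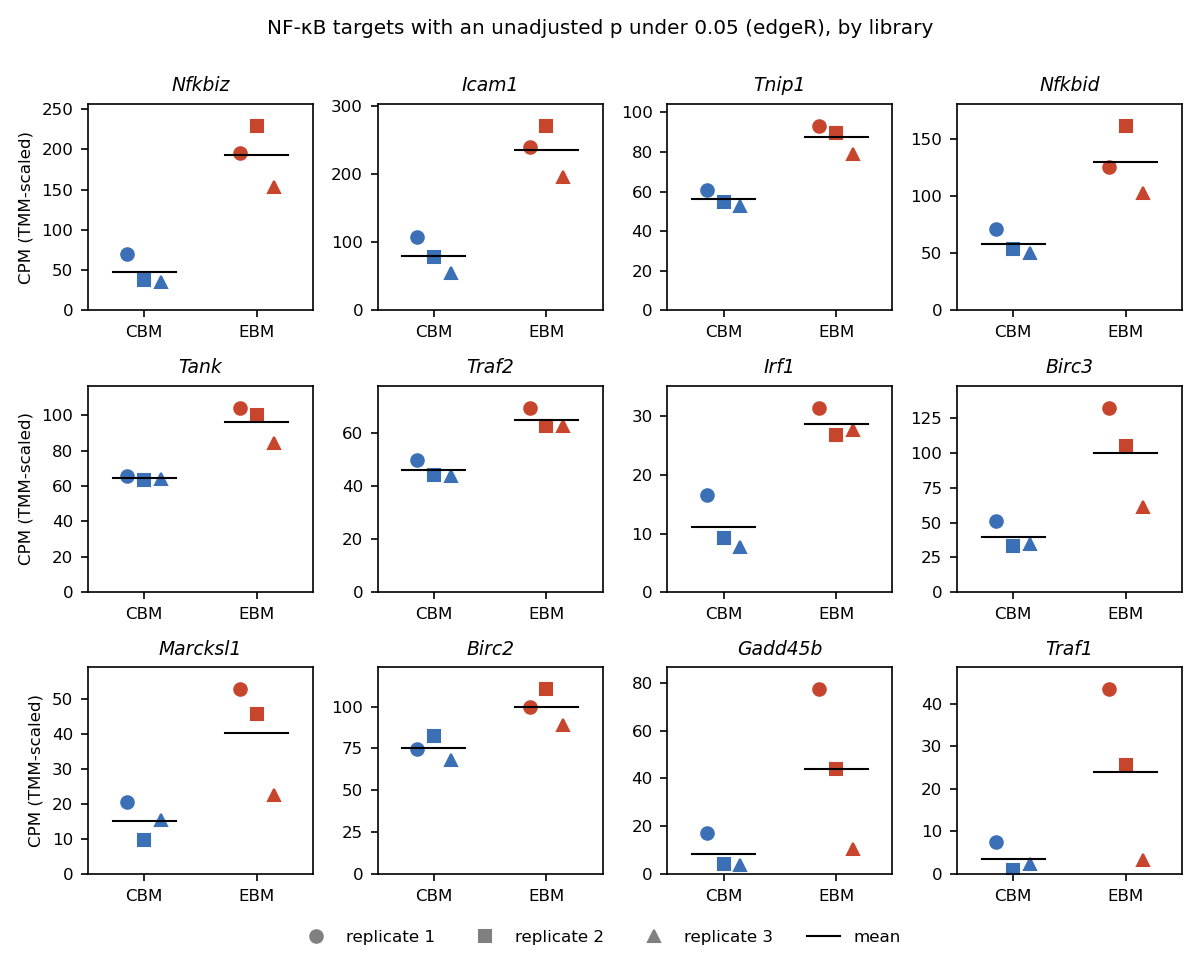
The level of each of the 12 targets with an unadjusted p under 0.05 (vertical axes, CPM from 0, a scale of its own in each panel) is shown by library for CBM (blue) and EBM (red), with the replicate number as the symbol and the group mean as a line. The groups are apart for 10 genes from Nfkbiz to Birc2, whereas for Gadd45b and Traf1 EBM replicate 3 lies below CBM replicate 1.

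The adaptors and kinases form the best measured group, with all 11 tested. Of these, 10 had a log2 fold change above 0, as did 50.4% of all genes tested, though Ripk2 and Ikbke were close to 0. At an unadjusted p under 0.05, 6 were higher, against 4.01% of all genes tested. Tnip1 (chr11:54910785-54962917) encodes ABIN-1, a ubiquitin-binding partner of A20 that restrains the pathway. It was at 60.8, 54.6 and 52.9 CPM in CBM and at 93.2, 89.8 and 79.0 CPM in EBM. All EBM libraries were higher with little spread within a region, and the log2 fold change was 0.64 (SE 0.106, unadjusted p 0.000572, edgeR adjusted p 0.170, DESeq2 adjusted p 0.000825), the lowest p of the group. It also had the highest level per length of the group over all libraries, 20.3 CPM per kilobase.

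Tank and Traf2 showed the same kind of small but even difference. Tank (chr2:61578585-61654171), which encodes a TRAF-binding scaffold of the TBK1 and IKKε kinases, was at 66.0, 63.5 and 63.7 CPM in CBM and at 104, 100.3 and 84.2 CPM in EBM. Its CBM libraries were nearly equal and its EBM libraries all higher, by a log2 fold change of 0.58 (SE 0.106, edgeR adjusted p 0.189, DESeq2 adjusted p 0.00360). Traf2 (chr2:25517982-25546940), which encodes the adaptor and ubiquitin ligase platform of TNF receptors, was at 49.96, 44.3 and 43.9 CPM in CBM and at 69.6, 62.6 and 62.8 CPM in EBM. The regions were apart in every library, with a log2 fold change of 0.50 (SE 0.101, edgeR adjusted p 0.237, DESeq2 adjusted p 0.0224).

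The cellular inhibitors of apoptosis, ubiquitin ligases that keep TNF receptor signalling on the survival branch, lie next to each other on chromosome 9. Birc3 (chr9:7848699-7873186), which encodes cIAP2, was at 51.4, 33.3 and 34.8 CPM in CBM and at 133, 105 and 61.5 CPM in EBM. Every EBM library was higher, EBM replicate 3 by the least, and the log2 fold change was 1.33 (SE 0.305, edgeR adjusted p 0.306, DESeq2 adjusted p 0.00198). Birc2 (chr9:7818227-7837064), which encodes cIAP1, was at 74.5, 82.7 and 68.3 CPM in CBM and at 99.9, 110 and 88.9 CPM in EBM. Here the regions were apart by a small gap, and the log2 fold change of 0.41 (SE 0.119, unadjusted p 0.0116) had an adjusted p of 0.435 in edgeR and 0.224 in DESeq2.

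Traf1 and Map3k8 varied widely between the EBM libraries. Traf1 (chr2:34941750-34961772), a TRAF family member that binds TRAF2 and the cIAPs, was at 7.63, 0.948 and 2.33 CPM in CBM and at 43.4, 25.7 and 3.21 CPM in EBM. EBM replicates 1 and 2 were far above all CBM libraries and EBM replicate 3 lay among them, so that the log2 fold change of 2.74 carried an SE of 1.03 (unadjusted p 0.0338, edgeR adjusted p 0.582, DESeq2 adjusted p 0.445). Its log2 fold change was 1.997 without EBM replicate 1 and 3.87 without CBM replicate 1. Its unadjusted p was between 0.0747 and 0.111 without CBM replicate 2, CBM replicate 3, EBM replicate 1 or EBM replicate 2, each left out alone. Map3k8, which encodes the kinase TPL2, was near the floor in several libraries, with 0.967, 0.263 and 0 CPM in CBM and 1.44, 1.34 and 0.193 CPM in EBM, and its log2 fold change was 1.31 (SE 1.10, unadjusted p 0.274), or 0.70 without CBM replicate 3 and 2.89 without CBM replicate 1.

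The remaining adaptors did not differ beyond the spread between libraries. Cflar, which encodes the caspase-8 inhibitor c-FLIP, was the only one lower on average in EBM, at 115, 84.7 and 87.1 CPM in CBM and 85.5, 91.1 and 59.0 CPM in EBM (log2 fold change -0.28, SE 0.198, unadjusted p 0.197). CBM replicate 1 was its highest library and EBM replicate 3 its lowest, and the others overlapped. Tnip2 (log2 fold change 0.11, SE 0.293), Ikbke (0.03, SE 0.353) and Ripk2 (0.01, SE 0.172), which encode ABIN-2, the kinase IKKε and the NOD receptor kinase RIP2, had unadjusted p-values of 0.722, 0.938 and 0.936.

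Of the 9 receptors, ligands and surface proteins, only 3 had enough counts to be tested. Icam1 (chr9:21015985-21028817), the adhesion molecule that binds the leukocyte integrins LFA-1 and Mac-1, was at 108, 78.0 and 54.1 CPM in CBM and at 240, 270 and 196 CPM in EBM. The lowest EBM library was above the highest CBM library by a wide margin, and the log2 fold change was 1.56 (SE 0.257, 2.95-fold, unadjusted p 0.000571, edgeR adjusted p 0.170, DESeq2 adjusted p 1.66e-06). It had both the lowest p and the highest level per length of its group, 18.3 CPM per kilobase in CBM and 54.0 in EBM. Tnfsf9, the ligand 4-1BBL, was at 1.65, 0.263 and 1.04 CPM in CBM and at 4.47, 3.56 and 0.257 CPM in EBM. As for Traf1, EBM replicates 1 and 2 were high and EBM replicate 3 was at the bottom (log2 fold change 1.496, SE 0.954, unadjusted p 0.162, or 0.97 on the log2 scale without EBM replicate 1 and 2.07 without CBM replicate 1). Relt, a TNF receptor family member, went the other way, at 55.2, 43.4 and 52.8 CPM in CBM and 40.2, 38.7 and 46.6 CPM in EBM. Only EBM replicate 3 overlapped with CBM, and the log2 fold change was -0.27 (SE 0.133, unadjusted p 0.0818). Without CBM replicate 2 it was -0.37 (unadjusted p 0.0245) and without EBM replicate 3 it was -0.37 (unadjusted p 0.0402).

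The other 6 surface and ligand genes, together with Plk2, Slc2a6 and Pde4b, did not pass the filter and had 7 to 73 counts summed over the 6 libraries, with at most 41 in 1 library. Their means were higher in EBM for 7 and lower for 2 (Csf1 and Plk2). Cd40, the costimulatory receptor, had 0 counts in each CBM library and 3, 2 and 2 counts in EBM, which is at or under the floor in both regions. Cd83, a surface marker of activated antigen-presenting cells, had 0, 4 and 1 counts in CBM and 4, 12 and 17 in EBM. Tnfrsf1b, which encodes TNF receptor 2, had most of its counts in EBM replicate 2, at 2.28 CPM, against 0.773 and 0.321 CPM in EBM replicates 1 and 3 and between 0 and 0.526 CPM in CBM. A difference in Tlr2, Csf1, Csf2, Plk2, Slc2a6 or Pde4b was not detectable at this depth.

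**Figure D3:**
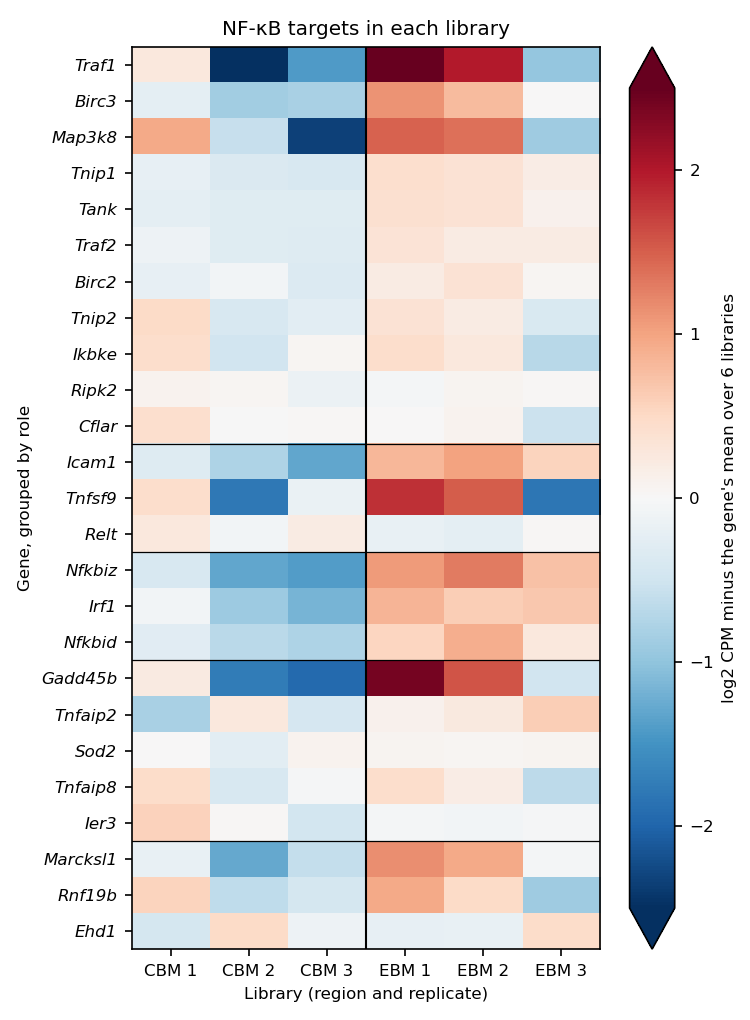
Each row is 1 of the 25 NF-κB targets tested, grouped by role with lines between groups, and each column is a library, with colour for log2 CPM minus the gene's mean over the 6 libraries (saturated at the ends of the scale). The 3 nuclear regulators and Icam1 are below their mean (blue) in all CBM and above it (red) in all EBM columns, faintly so for Irf1 in CBM replicate 1, while Traf1, Map3k8, Tnfsf9 and Gadd45b are red in EBM replicates 1 and 2 and blue in EBM replicate 3.

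Among the stress and survival genes, 4 of the 5 tested had a log2 fold change above 0, as did 50.4% of all genes tested. Only Gadd45b was higher at an unadjusted p under 0.05, against 4.01% of all genes tested. Gadd45b (chr10:80930073-80932204), a stress sensor that binds the MAP kinase kinase MKK7 and blunts JNK signalling, was at 17.1, 4.32 and 3.72 CPM in CBM and at 77.2, 43.9 and 10.5 CPM in EBM. EBM replicate 3 lay below CBM replicate 1, and the log2 fold change of 2.40 (SE 0.851, unadjusted p 0.0268) had an adjusted p of 0.552 in edgeR and 0.381 in DESeq2. Its log2 fold change was 1.70 without EBM replicate 1 and 3.45 without CBM replicate 1. Its unadjusted p was between 0.0598 and 0.0936 without CBM replicate 2, CBM replicate 3, EBM replicate 1 or EBM replicate 2, each left out alone. Ier3, an immediate early survival gene, had the highest level per length of all the targets, 133 CPM per kilobase over the 6 libraries. It was at 221, 150 and 107 CPM in CBM and at 143, 141 and 144 CPM in EBM, so that the EBM libraries were nearly equal and lay within the wide range of CBM (log2 fold change -0.16, unadjusted p 0.542). Without CBM replicate 1 its log2 fold change was 0.15. Sod2, the mitochondrial superoxide dismutase and a classical TNF-induced gene, was likewise flat, at 84.1, 69.0 and 88.5 CPM in CBM and 87.0, 86.1 and 87.2 CPM in EBM (log2 fold change 0.11, unadjusted p 0.371). Tnfaip2 was at 160, 334 and 209 CPM in CBM and 304, 333 and 428 CPM in EBM (log2 fold change 0.60, SE 0.278, unadjusted p 0.0698), and here EBM replicate 3 was the highest library. Without CBM replicate 2 its log2 fold change was 0.94 (unadjusted p 0.00312). Tnfaip8 had a log2 fold change of 0.01 (SE 0.320), with 37.6 to 67.7 CPM in CBM and 31.2 to 66.8 CPM in EBM.

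Of the targets with other roles, Marcksl1 (chr4:129513581-129515985), which encodes an actin-binding relative of MARCKS, was at 20.5, 9.63 and 15.5 CPM in CBM and at 52.7, 45.6 and 22.6 CPM in EBM. The regions did not overlap, though EBM replicate 3 came close to CBM replicate 1, and the log2 fold change was 1.41 (SE 0.382, edgeR adjusted p 0.404, DESeq2 adjusted p 0.0125). Rnf19b, a ubiquitin ligase, was at 50.1, 21.9 and 25.1 CPM in CBM and 65.6, 48.0 and 18.4 CPM in EBM, with overlap (log2 fold change 0.44, SE 0.500, unadjusted p 0.404). Its log2 fold change was 0.04 without EBM replicate 1 and 0.91 without CBM replicate 1. Ehd1, an endocytic recycling protein and the gene of this group with the highest level per length (29.5 CPM per kilobase over all libraries), overlapped fully, with 78.8 to 148 CPM in CBM and 92.1 to 147 CPM in EBM (log2 fold change 0.04). The 13 tested targets outside the 12 had log2 fold changes from -0.28 to 1.496, all with overlapping regions, and unadjusted p-values from 0.0698 to 0.977.

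The EBM libraries did not show the targets alike. EBM replicate 3 was the lowest EBM library for 17 of the 25 targets (68.0%), against 40.9% of all genes tested, and CBM replicate 1 was the highest CBM library for 21 of 25 (84.0%), against 35.9%. The targets differed in how far EBM replicate 3 stood below the others, by the ratio of its CPM to the mean of EBM replicates 1 and 2. For Tnfsf9 the ratio was 0.0640, for Traf1 0.0931, for Map3k8 0.139, for Gadd45b 0.173 and for Rnf19b 0.324. For Irf1 and Traf2, in contrast, it was 0.949 and 0.950, for Tnip1 0.863, for Tank 0.824, for Icam1 0.768 and for Nfkbiz 0.724. The ratio was above 1 for Ehd1 (1.58), Tnfaip2 (1.35) and Relt (1.18) and near 1 for Ier3, Ripk2 and Sod2. In log2 CPM, EBM replicate 3 stood 1.76 above the CBM mean for Nfkbiz and the mean of EBM replicates 1 and 2 stood 2.22 above it. For Traf1 the same differences were 0.29 and 3.63.

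**Figure D4:**
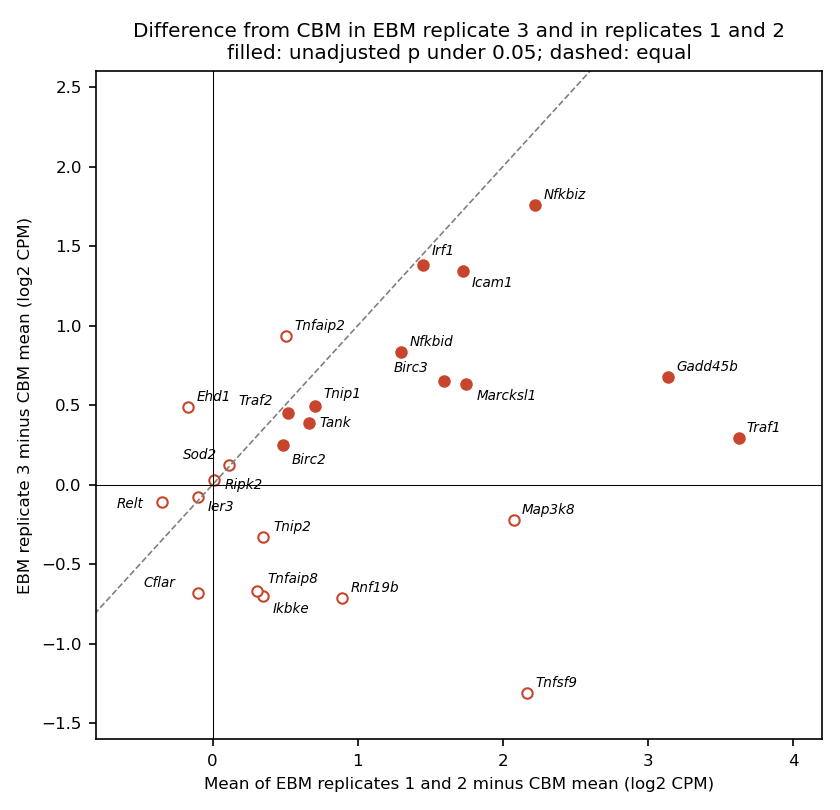
For each of the 25 targets tested, the difference from the CBM mean in EBM replicate 3 (vertical axis) is plotted against that in the mean of EBM replicates 1 and 2 (horizontal axis), both in log2 CPM, with a dashed line where they are equal. Irf1 lies near the line, Nfkbiz and Icam1 lie somewhat to its right, and Traf1 and Gadd45b lie far to its right. In EBM replicate 3, Tnfsf9 is the furthest below the CBM mean, and several others, among them Rnf19b, Ikbke, Cflar and Tnfaip8, are below it too.

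Other genes of the pathway are given for context. All 16 genes of the core list (subunits, inhibitors and their kinases) were tested. Of these, 8 were higher in EBM at an unadjusted p under 0.05 and 0 lower, against 4.01% and 3.90% of all genes tested. DESeq2 called 6 higher, against 1.07% of genes, and the median log2 fold change was 0.45. Of 37 upstream ligands, receptors and adaptors, 25 were tested, of which 4 were higher and 1 was lower at an unadjusted p under 0.05, with a median log2 fold change of 0.02. The 4 were Il1b (log2 fold change 3.26, SE 0.786, DESeq2 adjusted p 0.0341) and Il1a (2.68, SE 0.748, DESeq2 adjusted p 0.0138), which encode the IL-1 cytokines, Bcl10 (0.91, SE 0.122, DESeq2 adjusted p 2.88e-06), an adaptor that leads to the IKK complex, and Myd88 (0.32, SE 0.105, DESeq2 adjusted p 0.483), the adaptor of IL-1 and Toll-like receptors. The gene lower in EBM was Il1r1, the IL-1 receptor (log2 fold change -0.41, SE 0.143, DESeq2 adjusted p 0.417). Il1b was at 33.0, 5.001 and 8.39 CPM in CBM and at 208, 170 and 63.8 CPM in EBM, so that EBM replicate 3 was its lowest EBM library too.

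Several other measures moved with region or with a library, and their part in the values of the NF-κB targets was not tested. Over all genes tested, 50.4% had a log2 fold change above 0. At an unadjusted p under 0.05, 4.01% were higher in EBM and 3.90% lower. Of 9 heat shock genes, 8 were tested and all 8 had a higher mean in EBM, 2 of them at an unadjusted p under 0.05 (Hspa1b, log2 fold change 3.74, and Hspa1a, with 2 counts in each CBM library, under the floor, and 53, 50 and 22 counts in EBM). Their summed level was 3195 to 4268 CPM in CBM and 4159 to 5256 CPM in EBM. Of 12 immediate early genes that respond to tissue dissociation, 2 were higher (Jund and Egr2) and 1 was lower (Dusp1, log2 fold change -1.13, DESeq2 adjusted p 0.00956) at an unadjusted p under 0.05, and their summed level of 3756 to 10200 CPM in CBM overlapped with 7997 to 9747 CPM in EBM. Summed neutrophil markers (7 of 8 tested, 0 at an unadjusted p under 0.05) ranged from 3.32 to 227 CPM in CBM and from 35.2 to 163 CPM in EBM, and were highest in the libraries numbered 2 of both regions. Without both of these libraries, the neutrophil markers summed to 7.91 and 3.32 CPM in CBM and to 49.2 and 35.2 CPM in EBM. A difference in these markers between regions thus remained, and its part was not tested. In this fit, 10 targets were higher at an unadjusted p under 0.05 in edgeR, against 3.25% of all genes tested. Traf1, Gadd45b and Marcksl1 were no longer among them and Tnfaip2 was, and the median log2 fold change was 0.53. Summed monocyte and macrophage markers (4 of 10 tested) were at 6.55 to 14.4 CPM in CBM and 6.75 to 19.6 CPM in EBM, and the markers did not move one way. Cd14 was higher in EBM at an unadjusted p of 0.0224, while Cd68 was lower in every EBM library than in every CBM library (log2 fold change -0.51, unadjusted p 0.0521). Markers of T cells and of stromal cells summed to at most 1.06 CPM and none was tested, and Bglap2, Sp7 and Alpl of the osteoblast list, Emcn of the endothelial list, Calcr of the osteoclast list and Ms4a1 of the B cell list were at 0 in all libraries. The osteoblast list summed to 8.02 to 12.2 CPM in CBM and 7.18 to 9.06 CPM in EBM, nearly all of it from Runx2, the endothelial list to 1.94 to 3.42 and 0.964 to 2.76, the B cell list to 7.95 to 14.5 and 6.81 to 12.3, and the osteoclast list to 270 to 540 and 258 to 565, nearly all of it from Acp5.

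Some of the targets share sequence with other genes, and whether the counting used the strand is not stated. Icam1 overlaps the antisense gene Gm47079, which held 81 counts in all against 16704 for Icam1, and Irf1 overlaps Gm17334 (34 counts against 2102). Tnfsf9 is uncertain, as its opposite-strand neighbour Gm11110 held 305 counts against 204. Stretches of at least 150 bases with at least 98% identity to another gene were found for 7 targets (Birc3, Cflar, Tnfsf9, Icam1, Sod2, Tnfaip2 and Tnfaip8). For Icam1, Tnfsf9, Tnfaip2 and Tnfaip8 the other gene was the opposite-strand gene that overlaps the target, and not a copy elsewhere. The longest stretch was between Sod2 and Rps6ka2 (3110 bases), and Rps6ka2 held 11943 counts against 9050 for Sod2. Cflar (9488 counts) shared shorter stretches with Mgea5 (184 bases, 21058 counts) and Ankfy1 (169 bases, 20482 counts), among others. Whether such stretches moved counts between genes was not tested.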

How the data were processed

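Directional libraries were made by the authors from rRNA-depleted RNA and sequenced as paired-end reads. The deposited table holds raw counts per gene, whole numbers without normalization, and a gene length. HISAT2 2.0.5 and mm10 are named in the submitters' processing notes, and the counting tool is not given in the sources used here. All 34 targets have the coordinates of GENCODE M21 (GRCm38). Genes were filtered with filterByExpr (minimum count 10), scaled by TMM and tested with edgeR 4.0.16 (quasi-likelihood F-test, 3 against 3 libraries, no block, two-sided, Benjamini-Hochberg over 13352 genes). The SE is the absolute log2 fold change divided by the square root of F. DESeq2 1.42.0 and limma-voom 3.58.1 were run as alternatives, beside other scalings, filters, thinning and omitted libraries. Log2 CPM used a prior count of 2. An exact permutation of 3 against 3 libraries cannot go below p = 0.1, so none is quoted. The pipeline was tested on simulated data. The members and gene lists were chosen with earlier results of these data known. Targets with an unadjusted p under 0.05 or a DESeq2 call, the highest and lowest-p member of each role group, and every member lower in EBM were named by rule.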

Additional observations from a re-analysis of the deposited data

How the results depend on the processing

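Calls at an adjusted p depended on the tool and the filter. At 0.05, DESeq2 called 176 genes and 9 targets and edgeR without a filter on low counts called 40 genes and 3 targets (Icam1, Nfkbid and Nfkbiz), where edgeR with its filter, other scalings, limma-voom, thinning and each omission of a library called 0 of both. The number of targets higher at an unadjusted p under 0.05 was 10 to 16 over the 15 alternatives (10 to 14 when libraries were omitted), beside 2.15% to 4.64% of all genes, and the median log2 fold change 0.49 to 0.66. The highest counts, 15 with DESeq2 and 16 without a filter, are of 34 targets tested and hold targets the filter removes (Tnfrsf1b and Cd83, and Cd40 without a filter). Birc2, Birc3, Traf2, Tank, Tnip1, Icam1, Irf1, Nfkbid and Nfkbiz stayed under 0.05 in all 15 alternatives, Marcksl1 in 14, Gadd45b in 10 and Traf1 in 9. Marcksl1 was lost without both libraries numbered 2 (log2 fold change 1.06, unadjusted p 0.0712), an alternative added once the data had been seen. Tnfaip2 had an unadjusted p of 0.0316 with DESeq2, 0.0268 without a filter and 0.0105 without both libraries numbered 2. The count of targets lower was 0 to 1 when libraries were omitted and 1 (Relt) with library sizes only. Signs turned for targets near 0: with library sizes only, Ehd1 was at -0.0377, Ikbke at -0.0382, Ripk2 at -0.0566 and Tnfaip8 at -0.0571. Ikbke was at -0.0130 after thinning and Tnfaip8 at -0.0048 with limma-voom. When libraries were omitted, the log2 fold change ranged from -0.22 to 0.43 for Ehd1, -0.38 to 0.15 for Ier3, -0.29 to 0.29 for Ikbke, -0.0528 to 0.0596 for Ripk2, -0.25 to 0.26 for Tnfaip8 and -0.12 to 0.43 for Tnip2. The cause of these differences was not tested.

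The libraries of both regions carry replicate numbers, but nothing states that same-numbered libraries come from the same mouse. The paper's statistics section compares groups with an unpaired test, so the numbers were not taken as pairs. Over all genes tested, deviations from the group means correlated at 0.676, -0.204 and 0.203 for same-numbered libraries. Between differently numbered libraries, r ran from -0.673 (CBM replicate 1, EBM replicate 3) to 0.510 (CBM replicate 2, EBM replicate 3). With 3 libraries a group, these values cannot decide whether the libraries are pairs. With the replicate number as a block, 13 targets were higher at an unadjusted p under 0.05, against 4.64% of all genes tested. After adjustment 0 targets were called, and the median log2 fold change was 0.57. Tnfaip2 had an unadjusted p of 0.0438 and Tnfaip8 was at -0.0184. Targets with under 100 counts in all are limited by depth.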
